A study of Mus musculus with 8 samples.

Results

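The extracellular side of the Wnt pathway was examined in ATAC-seq peak lists of mouse retinal ganglion cells (RGCs), the neurons whose axons form the optic nerve. The set held 36 genes of 21883 protein-coding genes, made up of 19 Wnt ligands, 10 Frizzled receptors and 7 secreted antagonists. A peak, a stretch of DNA where the transposase cut more often than in the local background of the same library, was assigned to a gene when it overlapped the gene or the 10 kb on either side of it. Peaks of all 8 lists that touched were merged into regions. The 36 genes had 201 of the 189914 merged regions, and 96 of the 201 had a peak in every list, against 69493 regions in the whole series. Neighboring genes shared 9 of the 201 regions, with 5 shared by Wnt6 and Wnt10a, 3 by Wnt3 and Wnt9b and 1 by Wnt3a and Wnt9a.

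All mice were C57BL/6J, aged 6 to 10 weeks, and all received a virus in the vitreous and an optic nerve crush (ONC) 2 weeks later. RGCs were sorted 3 days after ONC, and each library was made from 50000 cells. The virus carried GFP as the control (AAV2-GFP, 3 samples), the histone methyltransferase Ezh2 (AAV2-Ezh2, 3 samples) or Ezh2-Y726D, a catalytically dead form of it (AAV2-Ezh2-Y726D, 2 samples). The sort took live cells positive for CD90.2, the product of Thy1, which T cells also carry, and it did not select for virus. The sources used here do not say which promoter drove the virus, or whether the samples came from separate mice, so the spread between samples may be partly technical. At the Ezh2 gene itself the lists had 4, 5 and 6 peaks with GFP, 9, 10 and 9 with Ezh2, and 4 and 4 with Ezh2-Y726D. The Ezh2 lists stood above the others, while those labeled Ezh2-Y726D did not exceed GFP, so this locus did not bear out their label. In these lists the directions given for that group rest on the label alone. The paper reports overexpression of both forms in the retina, and no rise of H3K27me3 in RGCs with Ezh2-Y726D. A peak does not measure how much of a virus was expressed.

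Wnt ligands are secreted, lipid-modified proteins that bind Frizzled receptors on the cell surface. With the coreceptors Lrp5 and Lrp6 this stabilizes β-catenin, and with other partners it acts on the cytoskeleton and cell polarity. Sfrp proteins and Wif1 bind the ligands themselves, whereas Dkk proteins bind the coreceptors. In the eye the pathway is known for patterning the retina, for growth of its vessels through Fzd4, and for the guidance of axons, in which Fzd3 takes part. Ezh2 places the repressive mark H3K27me3, which covers many developmental genes in stem cells.

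Start sites are shown because an open region there lies at the start of a known gene. Some of these regions also overlapped a start site of another gene. This was so at Fzd4 (Tmem135), Wnt7a (Gm30437) and the middle Wnt5b start site (Gm40397). RefSeq sequence of GRCm38.p6, from 250 bases before a start site to 50 bases after it, was at hand for 29 start sites of 26 of the 36 genes. The 4 below were chosen because Wnt6 had a ranked difference at its start site, Wnt10b had a peak in its window in every GFP list but not in Ezh2 replicate 2 or in either Ezh2-Y726D list, Wnt3a had no start-site peak in any list, and Wnt9a, its neighbor on the chromosome, had one in every list. CpG dinucleotides are in capitals.
Wnt6, chr1:74771642-74771941, plus strand, 31 CpG: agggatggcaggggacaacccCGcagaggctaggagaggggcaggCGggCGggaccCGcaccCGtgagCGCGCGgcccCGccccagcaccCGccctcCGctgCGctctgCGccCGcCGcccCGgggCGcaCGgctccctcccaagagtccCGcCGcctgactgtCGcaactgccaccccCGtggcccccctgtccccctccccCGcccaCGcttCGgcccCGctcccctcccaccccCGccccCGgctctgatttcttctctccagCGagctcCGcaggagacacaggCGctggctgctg
Wnt10b, chr15:98778101-98778400, minus strand, 18 CpG: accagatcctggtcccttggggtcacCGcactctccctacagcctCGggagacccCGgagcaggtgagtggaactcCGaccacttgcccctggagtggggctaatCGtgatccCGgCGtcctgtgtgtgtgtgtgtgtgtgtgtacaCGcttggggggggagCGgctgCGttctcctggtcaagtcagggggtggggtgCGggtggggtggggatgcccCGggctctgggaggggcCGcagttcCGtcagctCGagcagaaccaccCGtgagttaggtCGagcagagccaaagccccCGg
Wnt3a, chr11:59290702-59291001, minus strand, 45 CpG: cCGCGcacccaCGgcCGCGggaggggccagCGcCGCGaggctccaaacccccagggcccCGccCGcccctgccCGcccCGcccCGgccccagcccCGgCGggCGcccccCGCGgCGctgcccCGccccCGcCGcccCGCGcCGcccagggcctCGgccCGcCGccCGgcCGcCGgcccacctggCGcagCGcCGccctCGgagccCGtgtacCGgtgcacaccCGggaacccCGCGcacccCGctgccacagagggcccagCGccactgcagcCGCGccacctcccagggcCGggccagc
Wnt9a, chr11:59306680-59306979, plus strand, 58 CpG: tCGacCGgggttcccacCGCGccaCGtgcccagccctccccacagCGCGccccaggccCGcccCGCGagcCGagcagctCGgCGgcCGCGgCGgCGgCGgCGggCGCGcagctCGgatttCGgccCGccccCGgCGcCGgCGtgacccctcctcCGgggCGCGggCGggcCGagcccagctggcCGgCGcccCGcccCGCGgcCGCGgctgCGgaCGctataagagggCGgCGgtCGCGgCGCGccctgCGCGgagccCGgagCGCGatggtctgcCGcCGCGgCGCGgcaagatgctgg

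Most of these start sites had a peak in the sorted cells. All 20 rod and all 20 Müller glia marker genes also had peaks in every list, so a peak cannot be assigned to RGCs alone. For a gene with several, the site with a peak in the most lists was counted, and with a tie the one at the lower position. Of the 26 genes, 17 (65.4%) had a start-site peak in all 8 lists, against 60.8% of the 17491 protein-coding genes with such a sequence. A start site with no peak in any list was found for 2 of the 26 (7.69%), Wnt3a and Wnt8b, against 32.5% of all genes. By role, a peak in all 8 lists was present for 6 of 6 receptors (Fzd1, Fzd4, Fzd5, Fzd7, Fzd9 and Fzd10), 9 of 15 ligands and 2 of 5 antagonists (Sfrp2 and Wif1). The windows were rich in CpG, with a median of 26 per window against 13 over all genes, and a median GC content of 66.7% against 56.3%.

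Of the 29 windows, 15 had at least the median of 26 CpG, and 12 of these (80%) had a peak in all 8 lists, against 7 of the 14 (50%) with fewer. Over the windows of all genes the shares were 96.7% and 48.5%. Wnt9a, with 58 CpG and a GC content of 83.3%, had a peak in every list, with folds of only 3.92 to 4.27, where the fold is the ratio of the peak summit to the local background. Wnt3a, with 45 CpG and a GC content of 86.3%, had none, and the nearest region, chr11:59293650-59294116, had its center 3132 bp upstream and a peak in 7 of 8 lists. Wnt8b had 6 CpG and no peak, whereas the middle Wnt5b start site had 4 CpG and a peak in every list. A missing peak shows only that the site did not pass the peak caller in that library.

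Letters of several known motifs were searched for in the 29 windows on both strands. The GC box GGGCGG was in 22 windows (75.9%), against 46.2% of all 21262 windows. The TCF/LEF letters CTTTGAT, to which the nuclear end of the Wnt pathway binds, were in 2 windows (6.90%), at Wnt5b and Wnt11, against 3.22% of all. The E-box CACGTG was in 3 windows (10.3% against 7.84%) and the AP-1 letters TGANTCA in 1 (3.45% against 6.99%). These are matches of letters, described without a test.

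The start-site peaks differed most in 1 library. At the site counted for each gene, 23 of the 26 genes had a peak in each GFP list. In the Ezh2 lists 21, 21 and 23 genes had one, and in Ezh2-Y726D replicates 1 and 2, 17 and 23. Wnt11 was counted at its upstream site after a tie, and its downstream site had a peak in Ezh2-Y726D replicate 1. The gap in Ezh2-Y726D replicate 1 was 65.4% of these genes against 62.9% of all genes, where the other 7 lists had 80.8% to 88.5% against 63.6% to 65.5%. The windows of Wnt1, Wnt16, Dkk1, Dkk2 and Sfrp5 and the upstream one of Wnt11 lacked a peak in this replicate. Each had one in Ezh2-Y726D replicate 2. The merged regions at the start sites of Wnt1, Wnt16, Dkk1 and Sfrp5 did have a peak in replicate 1, outside the window. Its folds were 3.84, 5.02, 3.54 and 4.38. Some gaps were not particular to this replicate, as the windows of Wnt16, Sfrp5 and Dkk1 had a peak in only 2, 4 and 6 lists. In these counts the 2 Ezh2-Y726D samples spanned the range of all others.

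**Figure D1:**
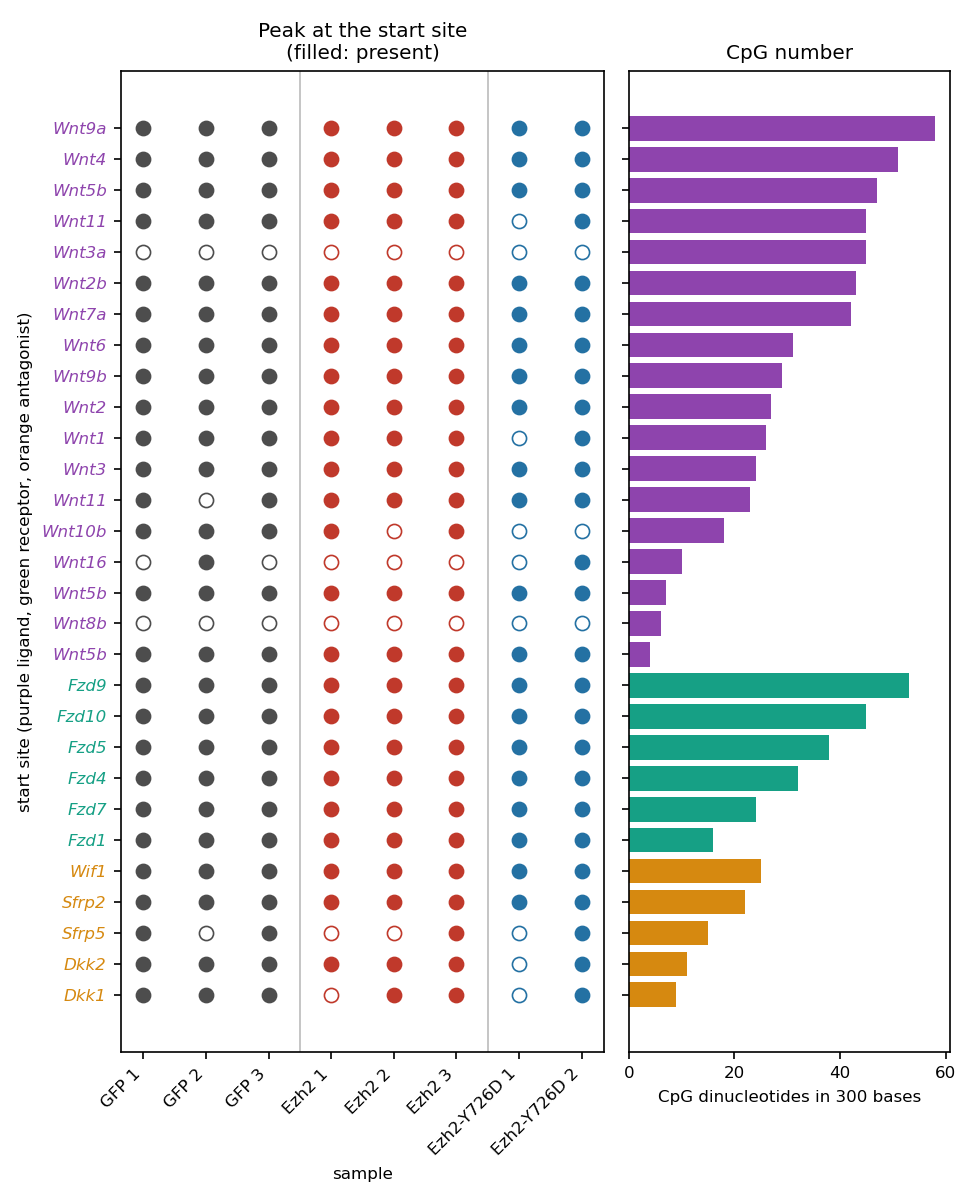
Left, peaks at 29 start sites (rows, ligands above receptors above antagonists, most CpG first within each role) in the 8 samples (columns), with filled circles for a peak and open circles for none. Right, number of CpG in the 300 bases of each start site; the 6 receptor start sites are filled throughout, and Wnt3a and Wnt8b are open throughout.

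The numbers of peaks at the member genes overlapped between the 3 groups. All 36 genes had a peak within its 10 kb window in each list, against 81.9% to 83.3% of all protein-coding genes. The member regions with a peak numbered 135, 134 and 157 in the GFP samples, 138, 150 and 144 in the Ezh2 samples, and 141 and 154 in the Ezh2-Y726D samples. Per 100000 peaks of the list this was 117, 119 and 117 for GFP, 109, 118 and 106 for Ezh2, and 113 and 120 for Ezh2-Y726D. Over the 8 lists the members had a median of 3.56 peaks per gene, against 3.12 over all protein-coding genes, and 0.95 peaks per 10 kb of window against 0.713.

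Ligand genes carried the most peaks. Wnt5b, a ligand of the β-catenin-independent branch, had 19, 16 and 22 peaks in GFP, 17, 19 and 18 with Ezh2, and 17 and 19 with Ezh2-Y726D. Wnt6, Wnt9a, Wnt9b and Wnt10a followed with 6 to 11 peaks in every list, some of them shared with a neighbor. The other ligands had 1 to 9 peaks, receptors 1 to 7 and antagonists 1 to 7. Fzd5 was the 1 gene with the same number, 3, in all lists.

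**Figure D2:**
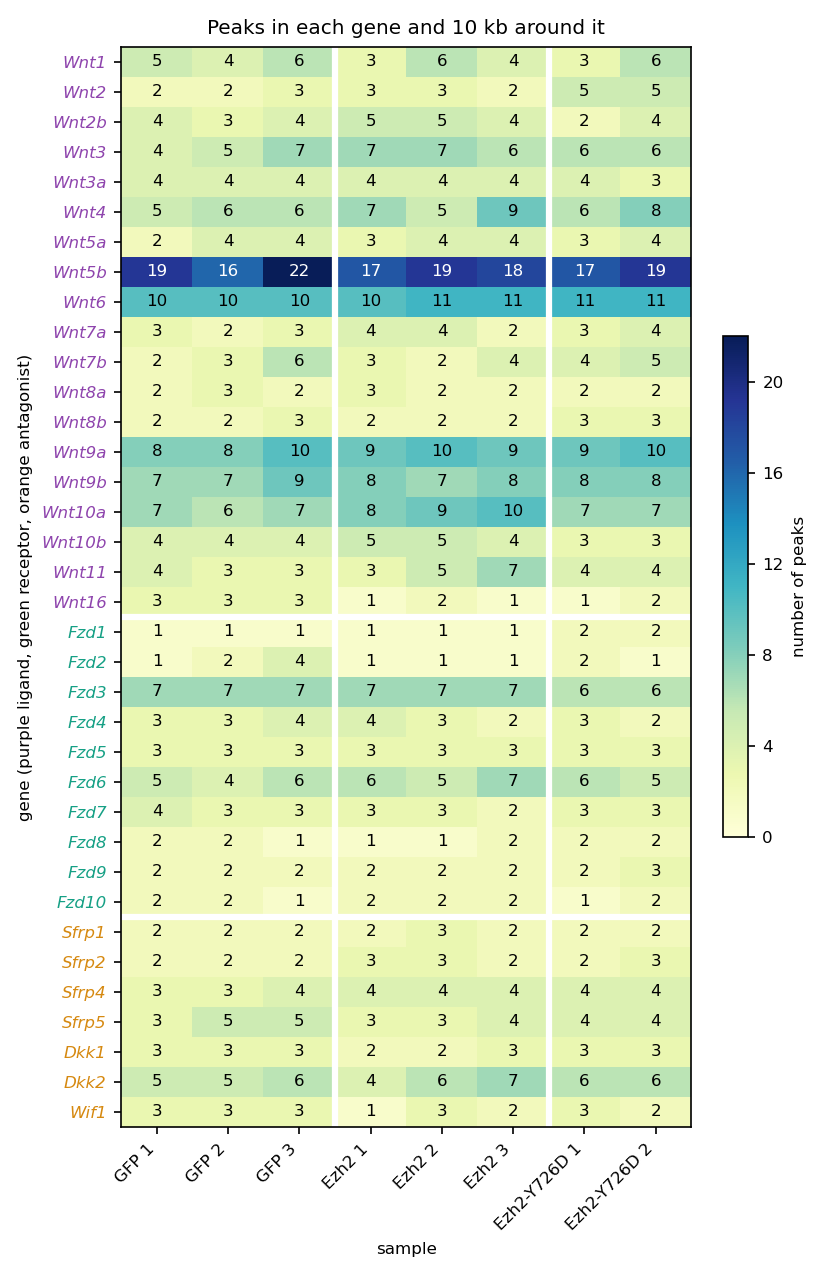
Number of peaks in each of the 36 genes and the 10 kb around it (rows, by role) in each of the 8 samples (columns), printed in the cells and shown by color. Wnt5b, the longest of these genes, stands above the rest with 16 to 22 peaks, and no gene is at 0 in any sample.

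Of the 201 regions, 27 overlapped a start site of the gene with a sequence, 103 lay elsewhere inside the gene and 71 lay in the flanks. A peak in all 8 lists was found for 23 of the 27 (85.2%), 45 of the 103 (43.7%) and 28 of the 71 (39.4%). Of the 11765 regions at a start site of any protein-coding gene with a sequence, 90.0% had a peak in all 8 lists, and of all regions in the series 36.6%. For the 10 genes with no such sequence, Fzd2 and Fzd8 among them, regions at the start site were counted with the other 2 kinds. Median widths were 1273, 622 and 524 bp. Another gene overlapped 36 of the 201 regions, so these cannot be tied to the member gene alone, and exons were not used here, so inside a gene means within its ends.

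Ezh2 was compared with GFP to see how the active enzyme left accessibility at these genes. Folds were ranked within each list, ranks were turned into normal scores, in units of 1 SD of a normal distribution, and group means were compared with limma over all 69493 regions. At an adjusted p under 0.05, 2 of the 96 member regions (2.08%) were called, against 4.44% of all regions. With Ezh2 1 was higher and 1 lower, against 1.59% and 2.84% of all. Normal scores of the 3 Ezh2 and 3 GFP samples did not overlap in 18 of the 96 (18.8%), against 24.0%. The median difference was 0.01 for the members and 0.01 for all regions, and 11 members had an unadjusted p under 0.05. Immune markers differed between the same samples, with summed peaks at T cell genes of 129 to 154 in GFP and 171 to 176 with Ezh2, and their part in these results was not tested. The count was 0 without GFP replicate 1 or 3 or Ezh2 replicate 2 or 3, and 1 without GFP replicate 2 or Ezh2 replicate 1.

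The region that was lower with Ezh2 belonged to Fzd9, a Frizzled receptor expressed in the nervous system. It lay at chr5:135258190-135259101, 7598 bp upstream of the start site. The folds were 6.83, 5.91 and 7.18 in GFP, 4.89, 3.69 and 3.92 with Ezh2, and 8.20 and 7.93 with Ezh2-Y726D. All Ezh2 values lay below all others, and the within-list percentile fell from between 62.3 and 79.4 in GFP to between 25.2 and 49.2 in Ezh2. The difference was -1.17 (SE 0.22, limma adjusted p = 0.022) from GFP and -1.46 (SE 0.25, adjusted p = 0.0052) from Ezh2-Y726D. The call against GFP was lost without GFP replicate 1 or 3 or Ezh2 replicate 2 or 3 (adjusted p from 0.054 to 0.069), while that against Ezh2-Y726D held in the 14 alternatives that gave a value. At the Fzd9 start site itself, chr5:135250299-135251620, folds were 8.60 to 10.9 in the 8 lists.

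The region that was higher with Ezh2 lay inside Wnt8b, a ligand known from the developing forebrain, at chr19:44511041-44512201. The folds were 4.34, 4.39 and 4.69 in GFP, 6.09, 5.56 and 5.86 with Ezh2, and 5.57 and 5.51 with Ezh2-Y726D. Both virus groups with an Ezh2 form lay above GFP in every sample. The difference from GFP was 0.69 (SE 0.15, adjusted p = 0.031) for Ezh2 and 0.38 (SE 0.17, adjusted p = 0.19) for Ezh2-Y726D. The Ezh2 call was lost in 9 of 16 alternatives, among them the loss of any 1 GFP or Ezh2 sample (adjusted p from 0.056 to 0.11).

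Peak number per gene, tested with limma over 17716 genes, was called for 0 of the 36 genes in Ezh2 against GFP, where the share of all genes was 2.91%, with 2.03% higher and 0.886% lower. At an unadjusted p under 0.05 there were 2. Wnt16, a ligand known from bone and skin, had 3, 3 and 3 peaks in GFP, 1, 2 and 1 with Ezh2, and 1 and 2 with Ezh2-Y726D. Its log2 difference in peak number was -0.80 for Ezh2 against GFP (adjusted p = 0.17). Of its flanking peaks, chr6:22286492-22286837 was present only in GFP replicates 1 and 3, and chr6:22280243-22280787 in all 3 GFP samples, Ezh2 replicate 2 and Ezh2-Y726D replicate 2. The test leaned on 2830 genes with no spread within any group. Without them, Wnt16 was the 1 member called.

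Presence, in which all samples of 1 group and none of the other had a peak, changed at few member regions. With Ezh2 against GFP, 1 of 201 regions was gained (0.498%, against 2.72% of all regions) and 2 were lost (0.995%, against 1.68%). All 3 concerned weak to moderate peaks. Presence has no test here, because 3 samples against 3 cannot go below an exact p of 0.1.

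Inside Wnt5b, the lost region at chr6:119513921-119515007 had folds of 3.30, 5.97 and 4.02 in GFP, no peak with Ezh2, and 5.02 and 5.82 with Ezh2-Y726D. At Fzd3, a receptor needed for the guidance of many axon tracts, 1 region was lost and 1 gained. The lost one, 4435 bp outside the gene at chr14:65187672-65188006, had folds of 5.65, 4.61 and 4.64 in GFP and no peak in any list of either Ezh2 form. The gained one, inside the gene at chr14:65234856-65235677, had no peak in GFP, folds of 4.40, 3.00 and 4.36 with Ezh2, and 3.84 and 5.09 with Ezh2-Y726D. Fzd3 therefore kept 7 peaks in each GFP and each Ezh2 list, though the sets of regions differed.

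Ezh2-Y726D was compared with GFP to see what the form without catalytic activity did. In the ranked comparison 4 of the 96 member regions (4.17%) were called, against 8.21% of all regions. With Ezh2-Y726D 2 were higher and 2 lower, against 3.55% and 4.65% of all. Groups did not overlap in 37 of the 96 (38.5%), against 41.5%. The median difference was 0.02 for the members and -0.01 for all regions. The count was 2 without GFP replicate 2 and 1 without either Ezh2-Y726D sample. Both comparisons with GFP share the same 3 control samples.

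Peak numbers at markers of immune cells moved with both Ezh2 forms, higher with Ezh2 and lower with Ezh2-Y726D than in GFP. Summed peaks at 20 microglia and macrophage genes were 91 to 106 in GFP, 107 to 117 in Ezh2, and 52 in both Ezh2-Y726D samples, in which 18 of 20 had a peak and Tmem119 and Itgam had none. Summed peaks at 20 T cell genes were 129 to 154, 171 to 176, and 86 in both, in which Cd8a and Cd8b1 had none. Of 216 T cell regions, 36 were lost by presence with Ezh2-Y726D against GFP, and 64 had a peak in every list. Ranks went the other way from peak numbers at these 64 regions alone. For Ezh2 against GFP, 1 was called higher and 8 lower, where the shares of all regions were 1.59% and 2.84%. For Ezh2-Y726D against GFP, 8 were higher and 1 lower, where the shares were 3.55% and 4.65%. Of 33 microglia and macrophage regions with a peak in every list, 1 was higher and 0 lower, and 1 higher and 2 lower. The part of immune markers in the results of any of the 3 comparisons was not tested. RGC markers had a peak at 19 of 19 genes in every list, with 92 to 104, 103 to 123, and 101 and 112 peaks. Summed peaks were 98 to 117, 100 to 102, and 109 and 117 at 20 Müller glia genes, 94 to 110, 107 to 126, and 92 and 102 at 20 endothelial genes, and 127 to 134, 114 to 122, and 113 and 123 at 20 rod genes. Fewer cells of a type and less open DNA per cell cannot be told apart in these samples.

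The largest difference of any member region in the 3 comparisons was at Sfrp1, a secreted antagonist that binds Wnt ligands. The region, inside the gene at chr8:23428292-23429125, had folds of 8.48, 9.50 and 8.84 in GFP, 9.71, 9.65 and 9.16 with Ezh2, and 3.84 and 5.34 with Ezh2-Y726D. Its percentile was 87.9 to 89.3 in GFP and 91.4 to 92.0 with Ezh2, and 22.9 and 55.2 with Ezh2-Y726D, so both samples with the dead form lay below all others. The difference was -1.79 (SE 0.23, adjusted p = 0.0036) for Ezh2-Y726D against GFP and 1.97 (SE 0.23, adjusted p = 0.0013) for Ezh2 against Ezh2-Y726D. Both calls held in the 15 alternatives that gave a value. Ezh2 and GFP differed by 0.18 (SE 0.21, adjusted p = 0.71). The other Sfrp1 region with a peak in every list, chr8:23410963-23412478, had folds of 7.68 to 9.70 in the GFP and Ezh2 samples and of 11.1 and 9.44 with Ezh2-Y726D, which overlapped.

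Fzd6, a receptor of the cell polarity branch, had a region 3819 bp outside the gene at chr15:39042011-39042631, which overlapped the gene model Gm7194. The folds were 5.18, 5.97 and 6.12 in GFP, 4.89, 5.08 and 4.80 with Ezh2, and 9.36 and 9.46 with Ezh2-Y726D. Both Ezh2-Y726D samples stood far above the rest. The difference was 1.02 (SE 0.17, adjusted p = 0.0091) for Ezh2-Y726D against GFP and -1.38 (SE 0.17, adjusted p = 0.0016) for Ezh2 against Ezh2-Y726D. The first call was lost without Ezh2-Y726D replicate 1 (adjusted p = 0.058) or replicate 2 (adjusted p = 0.060), and the second held in all 16 alternatives.

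The remaining calls against GFP were smaller. Fzd7, a receptor known from stem cells, had a weak region inside the gene at chr1:59483651-59484296 with folds of 2.61, 2.60 and 2.57 in GFP, 3.09, 3.23 and 2.78 with Ezh2, and 3.43 and 3.31 with Ezh2-Y726D. Every GFP value lay below every other, and the difference for Ezh2-Y726D against GFP was 0.77 (SE 0.18, adjusted p = 0.030). Wnt9b, a ligand known from kidney development, had a region 4697 bp outside the gene at chr11:103721397-103722665, which overlapped C130046K22Rik. Its folds were 6.98, 7.97 and 7.63 in GFP, 6.36, 7.28 and 6.61 with Ezh2, and 6.47 and 5.45 with Ezh2-Y726D, and the difference for Ezh2-Y726D against GFP was -0.74 (SE 0.19, adjusted p = 0.044). Without 1 GFP or Ezh2-Y726D sample at a time, adjusted p ran from 0.060 to 0.13 at Fzd7 and from 0.077 to 0.26 at Wnt9b, so each call needed all 5 samples. The Wnt9b call was also lost without any 1 Ezh2 sample, with adjusted p from 0.052 to 0.059.

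**Figure D3:**
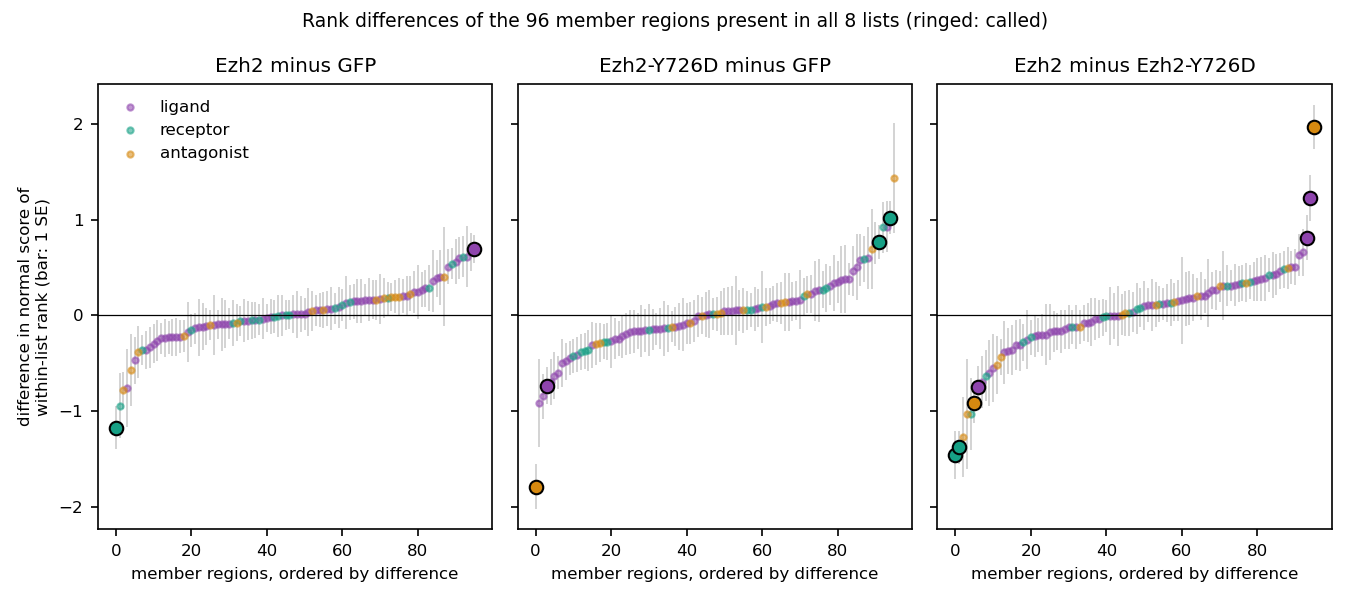
Difference in normal score (y axis, bars of 1 SE) of the 96 member regions with a peak in all 8 lists, ordered by size (x axis) in each of the 3 comparisons and colored by role. Ringed points are the 2, 4 and 7 called regions; most points lie within 1 unit of 0, and the Sfrp1 region is the lowest in the middle panel and the highest in the right panel.

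By presence, 7 of the 201 regions were gained with Ezh2-Y726D against GFP (3.48%, against 4.77% of all regions) and 5 were lost (2.49%, against 4.72%). Wnt2, a ligand of the β-catenin branch, gained 2 regions inside the gene that had no peak in any other list. At chr6:17991594-17992002 the folds were 5.31 and 4.37, and at chr6:18024398-18024683 they were 3.54 and 4.37. Its start-site region, chr6:18029839-18032124, was present in all lists with folds of 5.41 to 7.79.

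Of the other gained regions, those at Wnt9a and Wnt4 were in the Ezh2-Y726D lists alone, with folds of 3.14 to 3.77, that upstream of Wnt11 was also in 1 Ezh2 list, and 1 inside Dkk2 in 2 Ezh2 lists.

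The lost regions included moderate peaks. Inside Wnt9b, chr11:103732088-103732616 had folds of 4.96, 5.96 and 5.21 in GFP, 4.89 in Ezh2 replicate 1, and no peak in the other Ezh2 samples or in Ezh2-Y726D. Downstream of Fzd4, the receptor of retinal vessel growth, chr7:89415969-89416394 had folds of 3.86, 4.07 and 5.07 in GFP and 4.91, 5.66 and 4.58 in Ezh2, and no peak in Ezh2-Y726D. An adjacent region, chr7:89415276-89415608, was in GFP replicates 1 and 3 (3.30 and 3.38) and in both Ezh2-Y726D samples (4.72 and 6.06), and in no Ezh2 sample. In the 10 kb upstream of Wnt2b, a ligand of the eye margin, chr3:104966942-104967362 had folds of 4.32 to 5.11 in GFP and 3.26 to 4.00 in Ezh2, and no peak in Ezh2-Y726D. The stronger region next to it, chr3:104967565-104968520, had a peak in all 8 lists. Its folds were 7.9 to 10.2 in the GFP and Ezh2 samples, and 9.5 and 10.3 with Ezh2-Y726D.

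At the Wnt10b start site, chr15:98777751-98778317, the region had a weak peak in every GFP and Ezh2 sample. Its folds were 3.43, 3.16 and 3.26 in GFP and 3.30, 2.59 and 3.66 with Ezh2, and neither Ezh2-Y726D sample had a peak. The region includes bases of the sequence printed above, but the peak of Ezh2 replicate 2 lay outside that window, so 5 of 8 lists had a peak within it. Of the 20 member regions gained or lost in any comparison, 7 had a mean percentile of at least 50 in the group that had the peak, and 13 lay below that.

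In peak number, 2 of the 36 genes (5.56%) were called for Ezh2-Y726D against GFP, against 5.71% of all genes. Fzd1 was higher and Fzd3 lower, against 1.26% and 4.45% of all. Fzd1 had 1 peak in each GFP and each Ezh2 list and 2 in both Ezh2-Y726D lists, but the extra peaks lay at different places, chr5:4767928-4768143 in replicate 1 (fold 4.13) and chr5:4767064-4767277 in replicate 2 (fold 4.85). Fzd3 had 7 peaks in each GFP and each Ezh2 list and 6 in both Ezh2-Y726D lists, and, set against the Ezh2 lists, the missing ones again differed, chr14:65204555-65205137 in replicate 1 and chr14:65207730-65208212 in replicate 2. Neither gene had any spread within a group, so their p-values were set by the shared spread and are not given. With such genes left out of the fit, the 1 member called was Wnt2, with 2, 2 and 3 peaks in GFP, 3, 3 and 2 with Ezh2, and 5 and 5 with Ezh2-Y726D (adjusted p = 0.065 over all genes).

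Ezh2 and Ezh2-Y726D were also compared with each other, and whether catalytic activity caused the differences was not tested. The paper proposes that Ezh2-Y726D might inhibit endogenous Ezh2. The same samples differed at the Ezh2 gene, with 9, 10 and 9 peaks for Ezh2 and 4 and 4 for Ezh2-Y726D. Summed peaks at T cell genes were 171, 176 and 174 for Ezh2 and 86 and 86 for Ezh2-Y726D. In this comparison 7 of the 96 member regions (7.29%) were called, against 14.0% of all regions. With Ezh2 3 were higher and 4 lower, against 7.0% and 6.96% of all. Groups did not overlap in 39 of the 96 (40.6%), against 47.5%. The median difference was 0.05 for the members and 0.02 for all regions, and 20 members had an unadjusted p under 0.05. The count was 4 without Ezh2-Y726D replicate 1. Beside Sfrp1, Fzd6 and Fzd9, the calls were at Wnt5b, Wnt6 and Dkk2.

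Wnt5b had a called region in each direction. Inside the gene at chr6:119535653-119536509, 8266 bp downstream of the first start site, folds were 8.24, 7.05 and 7.60 in GFP, 10.99, 8.77 and 9.37 with Ezh2, and 7.08 and 5.58 with Ezh2-Y726D. All Ezh2 values lay above all others, and Ezh2 exceeded Ezh2-Y726D by 1.23 (SE 0.24, adjusted p = 0.0098), a call lost without Ezh2-Y726D replicate 2 (0.95, adjusted p = 0.092). At the middle start site, chr6:119467208-119468285, which is also a start site of Gm40397, folds were 4.84, 4.29 and 4.89 in GFP, 4.28, 5.16 and 4.46 with Ezh2, and 6.49 and 7.12 with Ezh2-Y726D. There both Ezh2-Y726D values lay above all others, and Ezh2 was lower by a difference of -0.75 (SE 0.22, adjusted p = 0.049). This second call was lost in 11 of 16 alternatives, including the loss of any 1 sample other than Ezh2 replicate 2 (adjusted p from 0.052 to 0.23).

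**Figure D4:**
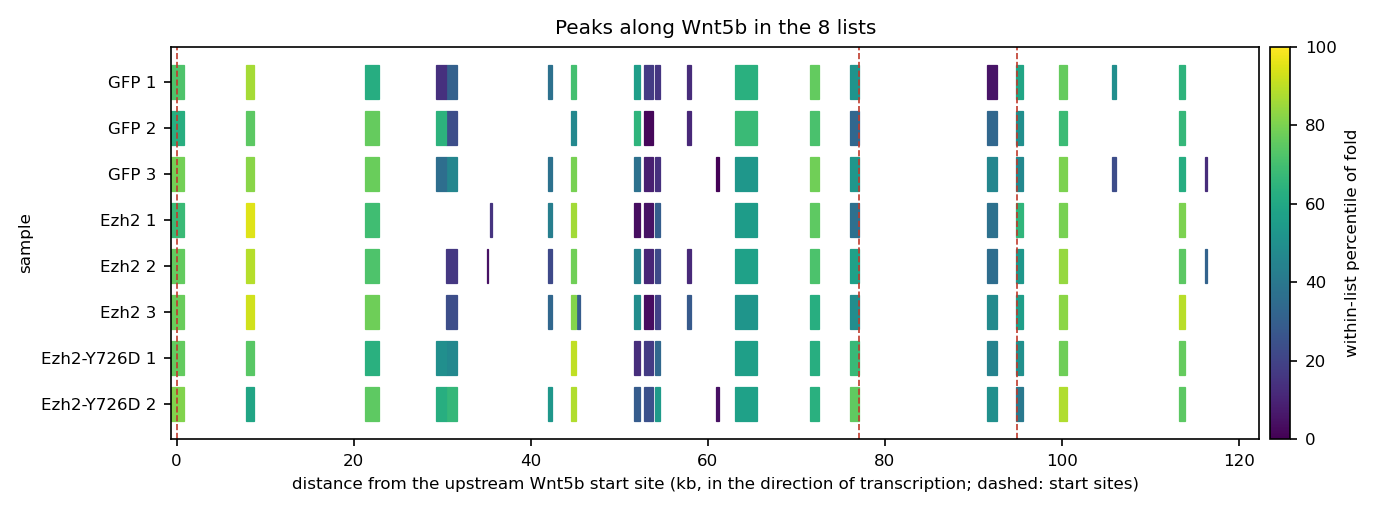
Regions with a peak along Wnt5b and the 10 kb on either side (x axis, kb from the upstream start site in the direction of transcription) in each of the 8 samples (rows), colored by within-list percentile of fold. Dashed lines mark the 3 start sites. Most of the broad regions recur in every sample, and the region near 8 kb is brightest in the Ezh2 samples. Near 30 kb, 1 region is missing from the Ezh2 samples, while an adjoining region is present in Ezh2 replicates 2 and 3.

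Wnt6, a ligand made in surface epithelia, was called at its start site, chr1:74771622-74772445, whose sequence is given above. The folds were 4.61, 4.13 and 4.36 in GFP, 4.05, 4.31 and 4.45 with Ezh2, and 2.98 and 3.70 with Ezh2-Y726D. Both Ezh2-Y726D values were the lowest, and the difference for Ezh2 against Ezh2-Y726D was 0.81 (SE 0.24, adjusted p = 0.046). Without Ezh2-Y726D replicate 1 it was 0.42 (adjusted p = 0.40), and the call was lost in 10 of 15 alternatives in all, among them the loss of GFP replicate 2 or 3 or of any 1 Ezh2 sample (adjusted p from 0.052 to 0.10). Against GFP the difference for Ezh2-Y726D was -0.85 (SE 0.24, adjusted p = 0.055).

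Dkk2, an antagonist that binds the Lrp5 and Lrp6 coreceptors, was called 1152 bp upstream of its start site at chr3:132083878-132084401. The folds were 6.53, 6.04 and 6.80 in GFP, 4.89, 4.20 and 4.95 with Ezh2, and 8.02 and 6.77 with Ezh2-Y726D. As at Fzd9, the Ezh2 samples lay below all others, with a difference of -0.91 (SE 0.22, adjusted p = 0.021) from Ezh2-Y726D and of -0.78 (SE 0.19, adjusted p = 0.051) from GFP. The call was lost without Ezh2 replicate 2 (adjusted p = 0.063) or Ezh2-Y726D replicate 1 (adjusted p = 0.16).

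**Figure D5:**
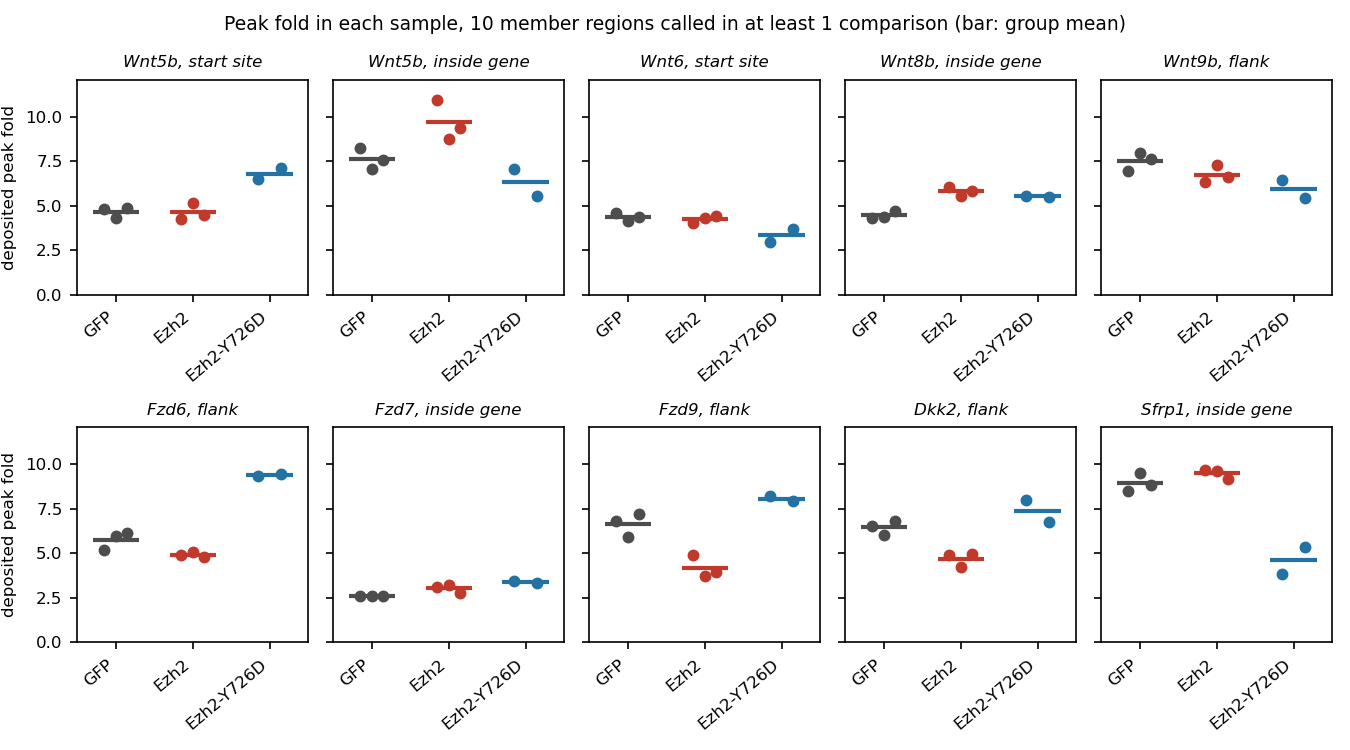
Deposited peak fold (y axis, from 0) in each sample by group (x axis) for the 10 member regions called in at least 1 comparison, with bars for group means. Ezh2-Y726D stands apart at Sfrp1 (3.84 and 5.34) and Fzd6 (9.36 and 9.46), and Ezh2 lies lowest at Fzd9 and Dkk2.

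By presence, 5 of the 201 regions were gained with Ezh2 against Ezh2-Y726D (2.49%, against 8.96% of all regions) and 10 were lost (4.98%, against 6.14%). At Wnt2b, chr3:104937728-104938253, which overlapped its neighbor St7l, had a fold of 3.53 in GFP replicate 1 and of 5.62, 5.08 and 6.10 in Ezh2, and no peak in Ezh2-Y726D. Inside Dkk2, chr3:132137879-132138364 had folds of 3.53 and 4.64 in GFP replicates 2 and 3 and 4.65 and 5.82 in Ezh2-Y726D, and no peak in Ezh2. A region close to it, chr3:132136486-132137479, had folds of 3.69 and 3.71 in Ezh2 replicates 2 and 3. There the Ezh2-Y726D folds were 4.13 and 3.88, and GFP had no peak. Among the weaker peaks, Wnt7b lost 2 regions inside the gene that had folds of 3.54 and 5.58 and of 4.13 and 2.91 in Ezh2-Y726D.

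Peak number was called for 3 of the 36 genes (8.33%) in Ezh2 against Ezh2-Y726D, against 11.0% of all genes. Wnt10b and Fzd3 were higher and Fzd1 lower, against 9.24% and 1.73% of all, and Fzd1 and Fzd3 had no spread. Wnt10b, a ligand known from fat and bone formation, had 4, 4 and 4 peaks in GFP, 5, 5 and 4 with Ezh2, and 3 and 3 with Ezh2-Y726D. Ezh2 and Ezh2-Y726D did not overlap, whereas Ezh2 and GFP did. The log2 difference in peak number for Ezh2 against Ezh2-Y726D was 0.50 (limma adjusted p = 0.020). The call was lost in 9 of 17 alternatives. It was lost with a −log10 q of at least 5 (adjusted p = 0.44), with 20 kb around genes (adjusted p = 0.53), with log2(peaks + 0.5) scaled to list length (adjusted p = 0.051) and with either replicate block (adjusted p = 0.051 and 0.079). It was also lost without Ezh2 replicate 1 or 2 (adjusted p = 0.055 and 0.053) or Ezh2-Y726D replicate 1 or 2 (adjusted p = 0.10 and 0.094). The Ezh2-Y726D lists lacked a peak in the region at the start site, and Ezh2 replicates 1 and 2 had an added peak at chr15:98778997-98779424.

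The rest of the pathway was read from a list of 63 further genes with 861 regions, of which 357 had a peak in every list. The list held coreceptors, secretion factors, the R-spondin axis, other antagonists, transduction, nuclear and planar polarity genes. With Ezh2 against GFP, 3 regions were higher and 10 lower (3.64% of 357), with Ezh2-Y726D against GFP 8 and 15 (6.44%), and with Ezh2 against Ezh2-Y726D 23 and 20 (12%). The shares over all regions were 4.44%, 8.21% and 14.0%. As for the member genes, each share was below that of all regions.

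The lowest p-values in that list fell on 6 genes, each at a region inside the gene. Celsr1, a cadherin of planar polarity, had folds of 9.08, 10.8 and 9.01 in GFP, 10.2, 10.7 and 9.38 with Ezh2, and 4.13 and 4.37 with Ezh2-Y726D at chr15:85981752-85982785 (Ezh2 against Ezh2-Y726D 2.26, SE 0.19, adjusted p = 0.00050). Axin1, a scaffold of β-catenin breakdown, had 7.87, 10.2 and 10.6 in GFP, 13.4, 12.8 and 11.2 with Ezh2, and 5.31 and 4.12 with Ezh2-Y726D at chr17:26167835-26168728 (2.62, SE 0.25, adjusted p = 0.00065). Both shared with the Sfrp1 region low values in the 2 Ezh2-Y726D samples.

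Daam1, which links Dishevelled to actin, had folds of 7.13, 7.05 and 6.72 in GFP, 4.98, 4.85 and 4.74 with Ezh2, and 3.45 and 3.51 with Ezh2-Y726D at chr12:71892907-71893611. The difference for Ezh2-Y726D against GFP was -1.89 (SE 0.17, adjusted p = 0.0019), and both forms of Ezh2 lay below GFP in every sample. Lgr5, a receptor for R-spondins, had 3.98, 4.25 and 4.03 in GFP, 5.10, 4.91 and 6.09 with Ezh2, and 3.02 and 3.38 with Ezh2-Y726D at chr10:115470535-115471336 (Ezh2 against Ezh2-Y726D 1.50, SE 0.22, adjusted p = 0.0027).

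The other two were low with Ezh2 alone, like the Fzd9 and Dkk2 regions. Lrp5, the coreceptor, had folds of 7.41, 7.83 and 8.05 in GFP, 3.91, 3.69 and 4.36 with Ezh2, and 8.65 and 7.39 with Ezh2-Y726D at chr19:3673927-3674671, and the difference for Ezh2 against GFP was -1.66 (SE 0.19, adjusted p = 0.0053). Wls, which carries Wnt proteins to the cell surface, had 7.30, 10.3 and 9.71 in GFP, 4.64, 4.62 and 4.80 with Ezh2, and 11.2 and 9.70 with Ezh2-Y726D at chr3:159851387-159852405, and the difference for Ezh2 against Ezh2-Y726D was -1.78 (SE 0.23, adjusted p = 0.0017).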

How the data were processed

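ATAC-seq was analyzed in 8 samples, grouped by their titles. Per the labels, the processing used cutadapt, Bowtie2, SAMtools, Picard, MACS2 and deepTools on GRCm38; their versions and settings are not given in the sources used here. Peaks were called by the authors sample by sample, and 1 list each was deposited. The deposited fold is the ratio of the peak to the local background, the deposited −log10 p and −log10 q are the peak caller's, and the deposited score, a rescaled −log10 q, was not used. Peak names carried tags for a mapping quality filter and duplicate removal. The lists held 112939 to 135895 peaks and no read numbers, so depth is unknown, so the test used ranks within a list, and the folds of each sample are given as a description.

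Gene positions and promoters came from RefSeq tables of GRCm38.p6, and positions count from 1. Merged regions with a peak in all 8 lists were compared with limma 3.58.1 (R 4.3.3) on normal scores, and log2(peak number + 1) per gene likewise, for genes with a mean of at least 1 peak, with Benjamini-Hochberg adjustment over all regions or genes. Scripts were tested on simulated data. Regions gained or lost were counted without a test, since the smallest two-sided exact p is 0.1. Values per sample are given for member genes with a called region, or with a region gained or lost at a mean percentile of at least 50, and for the 6 pathway genes with the lowest p. Wnt2, Wnt7b, Wnt10b and Wnt16, Fzd1, and the weaker regions of Fzd3 and Wnt2b, were chosen after their values were seen. The members and lists were chosen with earlier results of these data known. Tusc5, 1 of the RGC markers, had no match. The sources used here do not say whether replicate numbers in the titles mark shared mice. Deviations of same-numbered samples correlated at -0.015 to 0.048, so the samples were not treated as pairs. Alternatives covered peak threshold, list length, overlap, gene window, ranking measure, normalization and each sample left out.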

Additional observations from a re-analysis of the deposited data

How the results depend on the processing

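No named region changed direction under any alternative run. The ranked calls at Sfrp1, and at Fzd6 and Fzd9 for Ezh2 against Ezh2-Y726D, held under every alternative that kept the region in the test, 15 for Sfrp1, 16 for Fzd6 and 14 for Fzd9. Sfrp1 and Fzd9 gave no value at a −log10 q of at least 5, nor Fzd9 with peaks that cover at least 0.5 of a region. The other named calls each lost their call under at least 1. Counts are given in the order of the report, where the first comparison (Ezh2 with GFP) had 2 called regions, the second (Ezh2-Y726D with GFP) 4 and the third (both forms of Ezh2) 7. Ranking by −log10 p gave 8 for the second. A −log10 q of at least 5 gave 4 for the third. Peaks that cover at least 0.5 of a region gave 1 for the first and 4 for the third. Gene bodies alone gave 1, 2 and 4. With 1 sample left out the counts ran from 0 to 2, from 1 to 4 and from 4 to 7. Fewer samples remain in these fits, and the cause of the other changes was not tested.

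Regions gained and lost moved more. With −log10 q of at least 5, 8 were lost in the second comparison and 9 gained in the third. In lists cut to equal length, 0 were gained and 4 lost in the first and 8 lost in the second. With peaks that cover at least 0.5 of a region, 5 were gained in the first, 11 lost in the second and 9 gained in the third. Gene bodies alone gave 1 lost, 2 lost and 1 gained, in that order, and 20 kb around genes gave 2 gained in the first. Leaving out 1 sample, which by construction asks fewer samples to have or lack a peak, gave 1 to 6 gained and 2 to 7 lost in the first, 7 to 16 gained and 6 to 11 lost in the second, and 7 to 13 gained and 10 to 17 lost in the third.

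For peak number per gene, a −log10 q of at least 5 called 1 gene, Wnt3a, in the second and 1 in the third comparison. Gene bodies alone called 1, Fzd3, in the first, and 20 kb around genes called 1, also Fzd3, in each. With genes of no spread left out, an alternative chosen after seeing the data, 1 gene was called in the first, 1 in the second and 2 in the third. With 1 sample left out, the counts ran from 0 to 2, from 2 to 5 and from 2 to 5. Within gene bodies alone, 99.1% of members had a peak in the Ezh2 group on average, and every member had one within 10 kb.

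The replicate numbers were not taken as pairs, so the block was an alternative. With the title number as a replicate block, 2, 3 and 5 regions were called, and 1 (Fzd6), 3 and 2 genes by peak number. The names of the peaks in Ezh2-Y726D replicates 1 and 2 carry the numbers 2 and 3, and with those as the block, added after seeing the data, 1, 3 and 5 regions and 0, 2 and 2 genes were called.

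Depth is unknown, and a region without a peak did not pass the caller's threshold, which says nothing of how closed it was. The Ezh2-Y726D group has 2 samples.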
